A study of Homo sapiens with 12 samples.

Results

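Keratins, junction proteins and trophectoderm factors were followed in NT2/D1 embryonal carcinoma cells as a group of 10 genes. The genes were KRT7, KRT8, KRT18, KRT19, CDH1, EPCAM, CLDN6, ELF3, TFAP2C and TFAP2A. They were taken as a named list of epithelial genes, chosen with earlier results of these data known. Every probe annotated to them was used, 18 of the 47231 on the array. Of these genes 9 had a probe above background on at least 3 of the 12 arrays and were tested among 11139 genes, and KRT7 was not. After 3 days of low-dose 5-aza deoxycytidine (5-aza) CDH1, ELF3 and TFAP2C were higher than in control cells and CLDN6 was lower, while no difference of KRT8, KRT18, KRT19, EPCAM or TFAP2A passed the test.

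NT2/D1 is a pluripotent line from a human testicular germ cell tumour, and expression was read on Illumina HumanHT-12 v4 bead arrays, 3 per group. The groups were control cells, cells given 10 nM 5-aza for 1 day, cells given 10 nM 5-aza for 3 days with fresh drug each day, and cells exposed to 0.5 µM cisplatin for 6 hours and harvested 24 hours after its removal. 5-aza is a cytidine analog that is built into DNA and traps DNA methyltransferases, and cisplatin crosslinks DNA. All groups were wild-type cells in the same serum-containing medium, and the controls are given as untreated in the sample labels but as vehicle treated in the series description. The triplicates are called biological, but the labels do not say that they were separate cultures, so the p-values rest on the spread among these arrays, which may be technical. All 12 arrays lay on 1 BeadChip in group order, so position and group cannot be told apart.

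Keratins form the intermediate filaments of epithelial cells. KRT8 and KRT18 pair in simple epithelia, the first to form in the embryo, and KRT7 and KRT19 join them in many glandular and placental epithelia. CDH1 (E-cadherin) holds neighbouring cells together at adherens junctions, EPCAM is a surface adhesion molecule of epithelia and of pluripotent cells, and CLDN6 is a claudin of embryonic tight junctions that also marks pluripotent cells. ELF3 is an ETS factor of epithelial differentiation. TFAP2C and TFAP2A are AP-2 factors of trophectoderm, the outer layer of the blastocyst that gives rise to the placenta, and TFAP2C is also a germ cell factor expressed in germ cell tumours.

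5-aza removes methylation from cytosines that stand before guanine (CpG), so the stretch upstream of the start is shown for ELF3 and CLDN6, which moved in opposite directions and which have an entry in the promoter table used. The 250 bases before each RefSeq start (GRCh38.p14) are given on the strand of the gene, with every CpG in capitals. ELF3 lies at chr1:202010337-202010586 (plus strand) and CLDN6 at chr16:3018184-3018433 (minus strand).
ELF3: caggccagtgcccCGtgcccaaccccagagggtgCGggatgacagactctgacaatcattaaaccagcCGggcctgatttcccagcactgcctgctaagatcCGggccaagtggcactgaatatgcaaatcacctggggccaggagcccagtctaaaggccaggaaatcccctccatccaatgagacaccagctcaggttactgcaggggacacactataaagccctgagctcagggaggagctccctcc
CLDN6: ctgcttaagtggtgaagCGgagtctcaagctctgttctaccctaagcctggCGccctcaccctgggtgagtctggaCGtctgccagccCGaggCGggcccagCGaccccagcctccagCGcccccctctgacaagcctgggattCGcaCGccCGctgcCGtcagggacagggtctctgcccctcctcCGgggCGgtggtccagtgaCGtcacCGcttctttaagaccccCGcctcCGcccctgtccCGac
The ELF3 stretch held 4 CpG and the CLDN6 stretch 18, against a median of 11 over 35116 stretches of the same length (quartiles 3 and 23). KRT8 and TFAP2A were the only other genes of the 10 with an entry. KRT8 had 1 CpG, before an alternative start that lies inside the annotated gene. TFAP2A had 13 CpG before its outermost annotated start and 15 before an alternative start inside the gene. Searched on both strands, the AP-2 core GCCNNNGGC stood once in the CLDN6 stretch, 157 to 165 bases before the start, and not in that of ELF3, and 19.8% of all stretches held it. The E-box CAGGTG, a sequence bound by SNAI and ZEB repressors, stood once in the ELF3 stretch (as its reverse complement, 115 to 120 bases before the start) and is held by 17.5% of all. The TATA box letters TATAAA stood once in that of ELF3, 29 to 34 bases before the start, against 10.7% of all stretches, and none of these matches overlapped. These are matches of letters only, and methylation was not measured on these arrays.

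Before the members are compared, the arrays themselves differed in how well they repeated each other. The median standard deviation per gene (log2) was 0.17 in controls, 0.12 at 1 day and 0.13 at 3 days of 5-aza, and 0.36 with cisplatin, and the lowest correlation between arrays of a group was 0.986, 0.991, 0.991 and 0.927. Unnormalized median signal was 180 to 188.4 units in controls and 154.3 to 165.5 at 3 days, and 15435 to 19824 probes were detected per array, the most on cisplatin replicate 3. Of the pluripotency markers of the line, POU5F1, SOX2, NANOG, LIN28A and SALL4 were above background on enough arrays to be tested, while ZFP42 was detected on no array. RNA was taken from whole cultures, so fewer cells of a kind and less RNA per cell cannot be told apart in any value that follows.

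**Figure D1:**
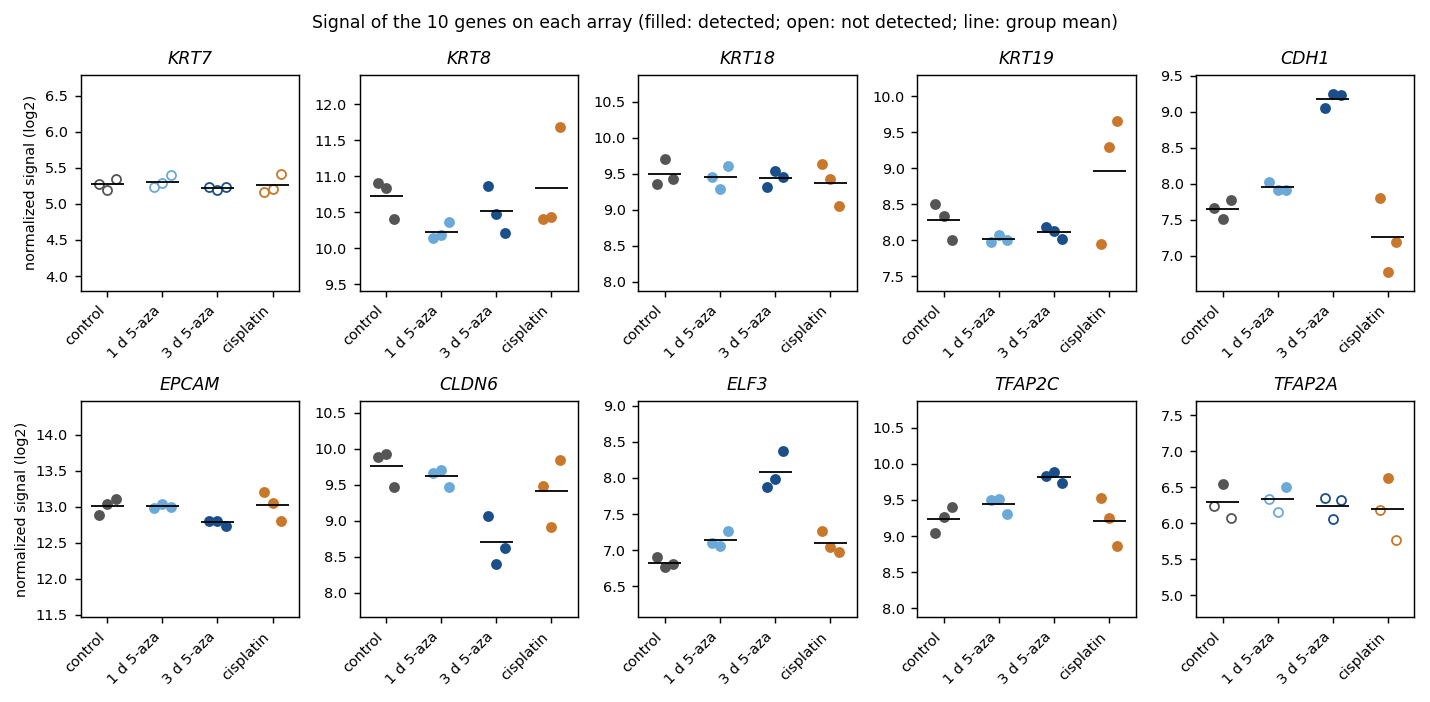
Normalized log2 signal (vertical axis) of the 10 genes on each of the 3 arrays of the 4 groups (horizontal axis), each panel with its own range of the same or greater height; filled points were detected above background, open points were not, and lines are group means. The 3 day arrays of CDH1, ELF3 and TFAP2C lie above all controls and those of CLDN6 and EPCAM below them.

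The keratins of simple epithelia were present without a called change after 5-aza. KRT8, on chromosome 12 next to KRT18, was detected on all 12 arrays at a log2 signal of 10.91, 10.84 and 10.41 in control replicates 1 to 3 and 10.14, 10.18 and 10.36 after 1 day of 5-aza. After 3 days it stood at 10.87, 10.48 and 10.21. All 1 day arrays lay below all controls, and the 3 day arrays overlapped them. The 1 day difference was -0.49 ± 0.29 (SE, log2; adjusted p = 0.863, limma) and the 3 day difference -0.20 ± 0.29 (adjusted p = 0.699), with a 95% interval at 3 days from -0.83 to 0.43.

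KRT18, the partner of KRT8, had no group that stood apart. Its brighter probe read 9.35, 9.70 and 9.43 in controls, 9.46, 9.29 and 9.61 at 1 day, and 9.32, 9.53 and 9.46 at 3 days. These arrays overlapped throughout, and the 3 day difference was -0.06 ± 0.18 (adjusted p = 0.864; 95% interval -0.44 to 0.32). A second KRT18 probe was lower by 0.25 at 3 days (adjusted p = 0.396 over all named probes). KRT8 and KRT18 have many processed pseudogenes, and whether the probes also bind those transcripts was not examined.

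KRT19, the smallest keratin, read 8.5, 8.34 and 8.01 in controls, 7.98, 8.08 and 8.01 at 1 day, and 8.18, 8.13 and 8.02 at 3 days. The treated arrays sat at the low end of the control range, and the differences were -0.26 ± 0.32 at 1 day (adjusted p = 0.908) and -0.17 ± 0.32 at 3 days (adjusted p = 0.759). KRT7 lay at 5.17 to 5.42 on all 12 arrays, was detected on none of them (lowest detection p 0.66234) and was not tested. Of 36 further keratins, 31 had a probe, 28 of these were detected on no array, and KRT10 alone passed the filter, with no call in any comparison.

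The junction genes parted at 3 days. CDH1, the adherens junction cadherin on chromosome 16, read 7.66, 7.51 and 7.78 in controls and 8.03, 7.92 and 7.92 after 1 day of 5-aza. After 3 days it read 9.05, 9.25 and 9.23. Every 1 day array lay above every control and every 3 day array above every 1 day array. The 3 day rise was 1.53 ± 0.21 on the log2 scale, or 2.89-fold (adjusted p = 0.000289), and the 1 day difference was 0.31 ± 0.21 (adjusted p = 0.866). The rise from 1 to 3 days, tested directly, was 1.22 ± 0.21 or 2.33-fold (adjusted p = 0.00255). It was also present before normalization, with a mean signal of 575 units at 3 days against 354 in controls.

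CLDN6, which lies on the same chromosome, went the other way. It read 9.89, 9.93 and 9.47 in controls, 9.67, 9.71 and 9.47 at 1 day and 9.07, 8.40 and 8.63 at 3 days. The 1 day arrays overlapped the controls and all 3 day arrays lay below them. The 3 day fall was -1.06 ± 0.24, that is 2.09-fold lower (adjusted p = 0.00775), against -0.15 ± 0.24 at 1 day (adjusted p = 0.93). The difference between 3 days and 1 day was -0.92 ± 0.24 (adjusted p = 0.0272). That last call was lost without any of the 3 arrays at 1 day (adjusted p = 0.0965, 0.106 and 0.0599), without 3 day replicate 2 (0.135) or 3 (0.101), and without the filter on detection (0.0575).

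EPCAM had 3 probes, all on the same side at 3 days. The tested probe read 12.88, 13.04 and 13.11 in controls, 12.99, 13.04 and 13 at 1 day, and 12.81, 12.80 and 12.74 at 3 days. For each of the 3 probes, all 3 day arrays lay below all controls. The differences were -0.23 ± 0.15 for the tested probe (adjusted p = 0.317) and -0.53 and -0.58 for the others (adjusted p = 0.104 and 0.124 over all named probes). None passed the test, though the others had an unadjusted p of 0.024 and 0.0317 (limma). Before normalization the tested probe averaged 9570 units in controls and 5680 at 3 days. The others averaged 6240 and 1360 in controls and 2970 and 696 at 3 days. The median signal of the arrays was also lower at 3 days. When arrays were scaled by their median in place of quantile normalization, the tested probe was called lower at -0.54 (adjusted p = 0.0422), under a scaling that moved the median of all genes to -0.17.

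Among the factors, ELF3 rose. It read 6.90, 6.77 and 6.80 in controls, 7.10, 7.05 and 7.26 at 1 day, and 7.87, 7.99 and 8.37 at 3 days. The 3 groups followed each other without overlap. The 3 day rise was 1.25 ± 0.16, or 2.38-fold (adjusted p = 0.000165), the 1 day difference 0.31 ± 0.16 (adjusted p = 0.863), and the step from 1 to 3 days 0.94 ± 0.16, or 1.92-fold (adjusted p = 0.00233). Unnormalized signal averaged 254 units in controls and 334 at 3 days. The control values lay only 0.33 to 0.60 (log2) above the lowest signal detected on each array, so the folds against control rest on values near background.

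TFAP2C rose less and its call was less stable. It read 9.04, 9.27 and 9.40 in controls, 9.5, 9.52 and 9.31 at 1 day and 9.83, 9.89 and 9.73 at 3 days. The 3 day arrays stood above all controls and above all 1 day arrays, and the 1 day arrays overlapped the controls. The 3 day rise was 0.58 ± 0.18, or 1.49-fold (adjusted p = 0.0407), and a second probe rose 1.64-fold (adjusted p = 0.0473 over all named probes). The step from 1 to 3 days was 0.37 ± 0.18 and did not pass (adjusted p = 0.242), but it passed without the cisplatin arrays in the fit (0.0414). Before normalization the tested probe averaged 805 units in controls and 826 at 3 days, and with median scaling the difference was 0.30 (adjusted p = 0.227). The call was also lost without control replicate 1, 2 or 3 (adjusted p = 0.166, 0.09 and 0.0526), any of the arrays at 1 day (0.0578, 0.0602 and 0.0563 for replicates 1 to 3) or any at 3 days (0.109, 0.13 and 0.0831). It was kept without any of the cisplatin arrays.

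TFAP2A, the other AP-2 factor, was at the edge of detection. Its tested probe read 6.24, 6.55 and 6.08 in controls, 6.34, 6.16 and 6.50 at 1 day and 6.35, 6.06 and 6.33 at 3 days, and was detected on 3 of 12 arrays, none of them at 3 days. The groups overlapped, and the 3 day difference of -0.04 ± 0.21 (adjusted p = 0.916) concerns values close to background. Of its other 4 probes, 1 was detected on 2 arrays and 3 on none.

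The counts of called members are given beside the share of all genes called. At 3 days 4 of the 9 tested members were called where 17.1% of all genes were, 3 of them higher (10.5% of all genes) and 1 lower (6.56%). The same 4 of 9 had an unadjusted p under 0.05, against 30.7% of all genes. On 5 of 9 the arrays did not overlap those of controls, against 48.6% of all genes. At 1 day limma called 0 of 9 members, as it called 0% of all genes, with 0 members and 622 genes (5.58%) at an unadjusted p under 0.05. Arrays did not overlap at 1 day for CDH1, ELF3 and KRT8, against 24.2% of all genes. From 1 to 3 days 3 of 9 were called against 8.99% of all genes, 2 higher (5.82%) and 1 lower (3.17%), and 5 of 9 did not overlap against 46% of all genes. The background moved with the fit: 4 of 9 members were called at 3 days against 38.3% of all genes without the cisplatin arrays, against 36.4% with array weights and against 33.8% with only the 6 arrays compared, so the distance from the background was small in those fits. At 1 day 0 of 9 were called without the cisplatin arrays, where 73 genes were. The 1 day and 3 day groups were set against the same controls.

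**Figure D2:**
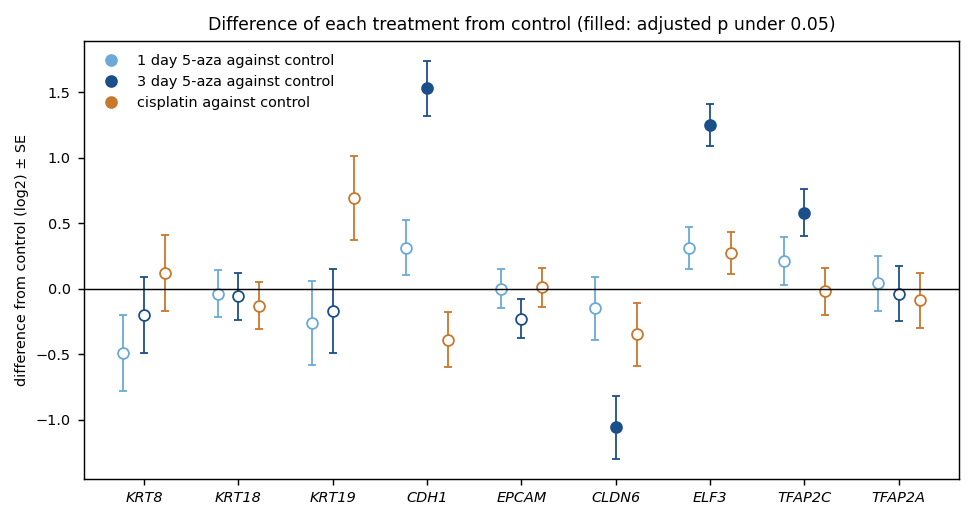
Difference of each treated group from control (log2, vertical axis) for the 9 tested genes (horizontal axis), with standard errors of the model as bars; filled points have an adjusted p under 0.05. At 3 days CDH1 stands at 1.53, ELF3 at 1.25, TFAP2C at 0.58 and CLDN6 at -1.06, and no point of the 1 day or cisplatin groups is filled.

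Cisplatin gave no call among the members. In that comparison limma called 0 of 9 against 1.43% of all genes (0.916% higher and 0.512% lower), with 1 member (KRT19) at an unadjusted p under 0.05, a level that 21.9% of all genes reached. KRT19 read 7.95, 9.29 and 9.65 on cisplatin replicates 1, 2 and 3. Replicates 2 and 3 lay above all controls and replicate 1 below them, and the difference was 0.69 ± 0.32 (adjusted p = 0.228). KRT8 read 10.40, 10.44 and 11.68, with replicate 3 above and replicate 1 just below all controls (difference 0.12 ± 0.29, adjusted p = 0.846). The standard deviations of these keratins over the cisplatin arrays, 0.90 for KRT19 and 0.73 for KRT8, were at the 95.8th and 89.9th percentile of all genes in that group.

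CDH1 read 7.80, 6.78 and 7.19 with cisplatin, so that replicates 2 and 3 lay below all controls and replicate 1 above them. The difference was -0.39 ± 0.21 (adjusted p = 0.298). Without cisplatin replicate 1 both genes were called, KRT19 higher by 1.19 (adjusted p = 0.000601) and CDH1 at -0.66 (adjusted p = 0.0091), and 3059 genes were called in all in place of 159. ELF3 read 7.27, 7.04 and 6.97, above every control, against 16.3% of all genes whose arrays did not overlap (0.27 ± 0.16, adjusted p = 0.341). CLDN6 (-0.35 ± 0.24), KRT18 (-0.13 ± 0.18), TFAP2A (-0.09 ± 0.21), TFAP2C (-0.02 ± 0.18) and EPCAM (0.01 ± 0.15) overlapped the controls.

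The treatments were also set against each other, to see whether 5-aza at 3 days left the members at another level than cisplatin did. Of 9 members 4 were called, where 25.1% of all genes were, 3 higher after 5-aza (15% of all genes) and 1 lower (10.1%). The 3 that were higher did not overlap cisplatin, against 20% of all genes in that direction, and 5 of 9 had an unadjusted p under 0.05 against 38%. CDH1 was 3.79-fold higher after 5-aza (1.92 ± 0.21, adjusted p = 5.06e-05), without overlap of the arrays. ELF3 was 1.97-fold higher (adjusted p = 0.0011). TFAP2C was 1.52-fold higher by the tested probe (adjusted p = 0.0266) and 2.31-fold by the second (adjusted p = 0.00277 over all named probes). CLDN6 was 1.64-fold lower (-0.72 ± 0.24, adjusted p = 0.0413), but its arrays overlapped those of cisplatin, which read 9.49, 8.92 and 9.84.

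The calls of TFAP2C and CLDN6 in this comparison lay close to the threshold. Leaving out an array gave differences of 0.43 to 0.76 for TFAP2C and -0.97 to -0.50 for CLDN6. The call of TFAP2C was lost without 3 day replicate 1, 2 or 3 (adjusted p = 0.0761, 0.0887 and 0.0574) and without cisplatin replicate 3 (0.0754). That of CLDN6 was lost when control replicate 1 or 2 was left out (0.0529 and 0.053), for any array at 1 day (0.0567, 0.0572 and 0.0554 for replicates 1 to 3), for 3 day replicates 2 and 3 (0.164 and 0.112) and for cisplatin replicates 1 and 3 (0.0594 and 0.138). KRT19 was lower after 5-aza at -0.86 ± 0.32 (adjusted p = 0.0632), and was called without cisplatin replicate 1 (-1.37, adjusted p = 9.06e-05).

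**Figure D3:**
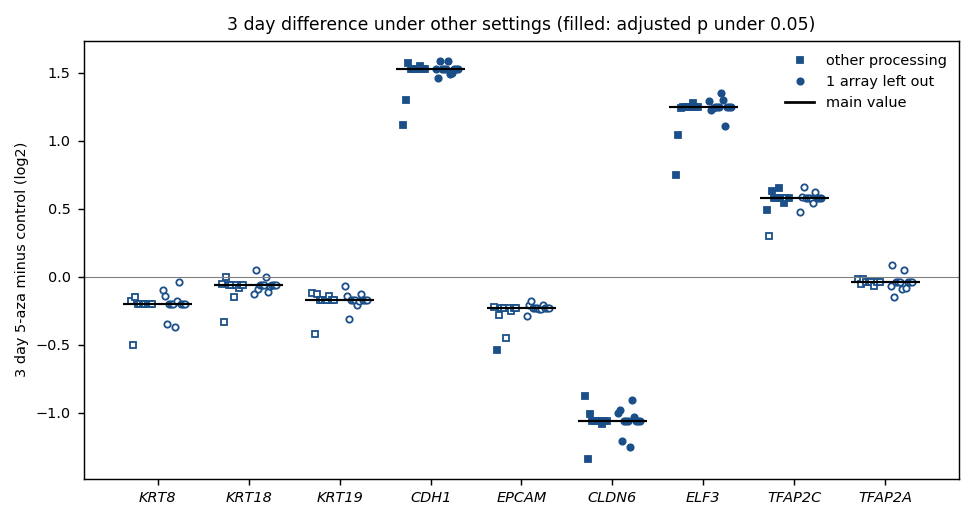
Difference between 3 days of 5-aza and control (log2, vertical axis) for the 9 tested genes (horizontal axis) under other processing (squares) and with 1 array left out (circles); lines are the main values and filled points have an adjusted p under 0.05. All points of CDH1, ELF3 and CLDN6 are filled, while TFAP2C has filled and open points and EPCAM has 1 filled point.

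The other genes of the junctions were called in both directions at 3 days, at 27.3% of the tested adherens junction genes, 15.8% of the tight junction genes and 20% of the desmosome genes, beside 17.1% of all genes. Of 14 further adherens junction genes 11 were tested, with 1 called higher, 2 lower, 8 not called and a median of -0.22 against 0.01 over all genes. CDH3 (P-cadherin) rose 1.6-fold (adjusted p = 0.0206). JUP (plakoglobin, the catenin shared with desmosomes) was 1.86-fold lower (adjusted p = 0.0174), and NECTIN1, a nectin that starts cell contacts, was undetected on the 3 day arrays and at least 2.07-fold lower (adjusted p = 0.000443). The catenins other than JUP did not pass the test, with CTNNA1 at 0.04, CTNNB1 at -0.28 and CTNND1 at 0.20.

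Of 33 further tight junction genes 19 were tested, with 2 higher, 1 lower, 16 not passing and a median of 0.17. CLDN23 rose 1.98-fold (adjusted p = 0.000812) and CLDN10 1.71-fold (adjusted p = 0.0174), both claudins, and CGNL1 (paracingulin, which links junctions to the cytoskeleton) was 1.4-fold lower (adjusted p = 0.04). CLDN3, CLDN4 and OCLN, claudins and occludin of mature epithelia, were detected on no array. Of 22 desmosome and hemidesmosome genes 10 were tested and 2 rose, the plakin linkers DSP (1.56-fold, adjusted p = 0.0232) and PPL (1.58-fold, adjusted p = 0.0159), with a median of -0.05. With median scaling CDH3, CLDN10, DSP and PPL were no longer called (adjusted p = 0.295, 0.0964, 0.259 and 0.279). In its place the desmosome list then had 2 genes called lower, PKP4 (-0.64, adjusted p = 0.0257) and DSG2 (-0.64, adjusted p = 0.0422), so the direction of its calls turned with the scaling.

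Of 28 epithelial regulators and surface genes 14 were tested, with 4 higher, 1 lower, 9 not passing and a median of 0.21 at 3 days. Thus 35.7% of those tested were called, against 17.1% of all genes. PRSS8 (prostasin, a membrane protease of epithelia) rose 2.94-fold (adjusted p = 0.0265), LAD1 (ladinin, a filament anchoring protein) 2.66-fold (adjusted p = 0.0011), and SPINT2, an inhibitor of such proteases, 1.89-fold (adjusted p = 0.003). MUC1, an apical mucin, was undetected on all control arrays and at least 2.25-fold higher (adjusted p = 0.0142). KLF4, a factor of both pluripotent and epithelial cells and the fifth of the called genes by size, was 1.84-fold lower (adjusted p = 0.013) and was not called under median scaling or cyclic loess (adjusted p = 0.056 and 0.0503). ESRP1, a splicing factor of epithelia, did not pass (0.08), and GRHL2, a factor that drives CDH1 in epithelia, was detected on no array.

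**Figure D4:**
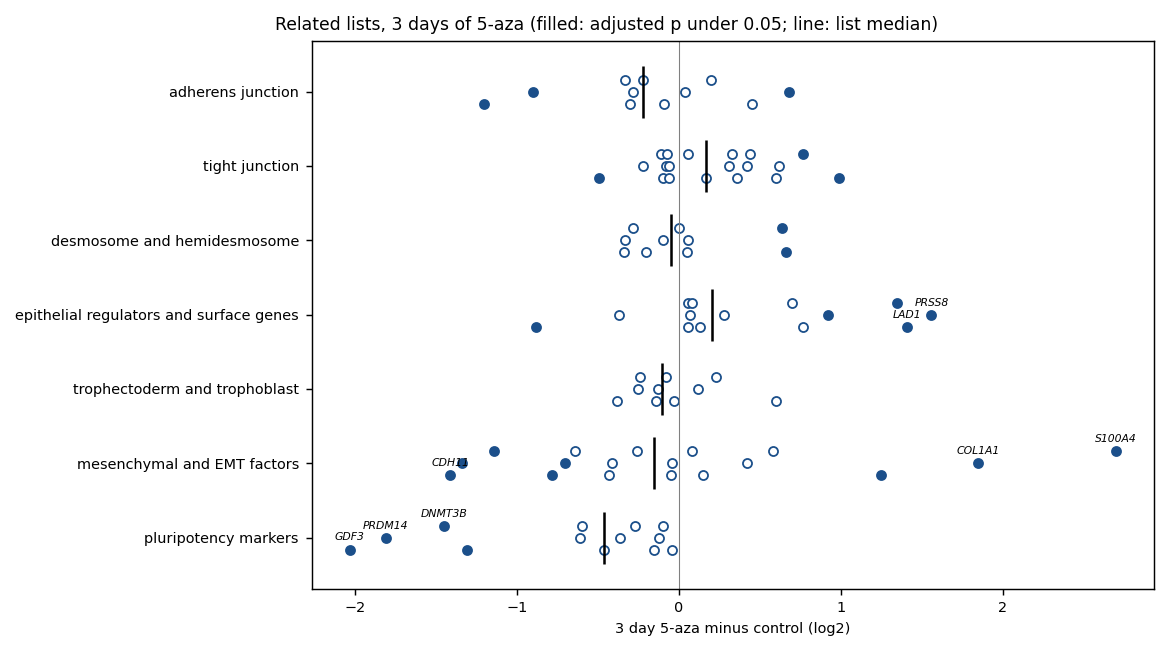
Difference between 3 days of 5-aza and control (log2, horizontal axis) of the tested genes in 7 related lists (vertical axis); each point is a gene, filled points have an adjusted p under 0.05 and bars are list medians. Calls lie on both sides of 0 for adherens junction, tight junction, epithelial and mesenchymal genes, on the left for pluripotency markers, and are absent from the trophectoderm and trophoblast list.

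The list of trophectoderm and trophoblast genes showed no call. Of its 37 genes 35 had a probe, 18 of these were detected on no array, and 10 were tested, with 0 called by limma in any of the 5 comparisons (17.1% of all genes at 3 days against control) and a median of -0.11 at 3 days. Of the 10, only TEAD4, PEG10 and YAP1 were detected on all 12 arrays. The others were detected on 3 to 6 arrays, so their values lay close to background and a change could be missed. At an unadjusted p under 0.05, 0 of the 10 passed in the comparisons among control, 1 day and 3 days, and 1 in each comparison with cisplatin. CDX2, GATA2, GATA3, EOMES, HAND1 and CGB5, which define trophectoderm or trophoblast, were detected on no array, and CGA on 1. TEAD4, the factor that opens the trophectoderm programme in mouse embryos, was detected on all 12 arrays and stood at 0.60 (adjusted p = 0.258). Without the cisplatin arrays in the fit it was called (adjusted p = 0.0157), the only 1 of the 10 in a fit that called 38.3% of all genes. The summed signal of the 10 tested genes was 2899 to 3325 units in controls and 2793 to 3320 at 3 days.

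Mesenchymal and EMT genes (epithelial to mesenchymal transition) moved both ways beside CDH1. Of 26 genes 18 were tested, with 3 higher and 5 lower at 3 days against control and a median of -0.16. Thus 44.4% of those tested were called, against 17.1% of all genes. CDH11, a mesenchymal cadherin, was 2.66-fold lower (adjusted p = 0.00379), while S100A4 rose 6.5-fold (adjusted p = 6.16e-06) and COL1A1 3.61-fold (adjusted p = 6.58e-05). PDGFRA was at least 1.73-fold lower (adjusted p = 0.000508), and was not called on the deposited normalized values (adjusted p = 0.0823). Also called lower were the transcription factors TCF4 (-1.14, adjusted p = 0.000264) and FOXC2 (-0.70, adjusted p = 0.0139), and THY1 (-0.78, adjusted p = 0.0145). ACTA2 was called at least 1.34-fold higher (adjusted p = 0.000467). Of the repressors of CDH1, ZEB1 and SNAI1 were detected on no array and SNAI2 on 2, ZEB2 stood at -0.41 (adjusted p = 0.234), and VIM, the intermediate filament of mesenchymal cells, at -0.04 (adjusted p = 0.939). TWIST1, another repressor of CDH1, stood at 0.58 (adjusted p = 0.115) and was called higher without the cisplatin arrays in the fit (0.0359). CDH2 (N-cadherin) was at -0.64 (adjusted p = 0.0513) and was called lower under median scaling (-0.95, 0.00819), cyclic loess (0.0327), the deposited values (0.0368) and without the cisplatin arrays (0.000495).

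Markers of other cell states were set beside these genes, and their part in the results was not tested. Of 13 tested pluripotency markers 4 (30.8%) were lower at 3 days, against 6.56% of all genes, and 9 did not pass (median -0.46). The 4 were GDF3, lower by 4.08-fold (adjusted p = 7.03e-06), PRDM14 by 3.52-fold (adjusted p = 0.00117), DNMT3B by 2.73-fold (adjusted p = 0.0025) and NANOG by 2.47-fold (adjusted p = 5.16e-05). POU5F1 stood at -0.61 (adjusted p = 0.0584), and was called lower under median scaling (0.0213), the deposited values (0.0457) and without the cisplatin arrays (0.00247). With median scaling 9 of the 13 were called lower. The summed signal of the list fell from 79524 to 80397 units in controls to 58438 to 63576 at 3 days. It also lay below all controls at 1 day (74871 to 78723) and with cisplatin (59174 to 79035). Of 10 neural markers 1 was higher and 1 lower (20% called, against 17.1% of all genes). Of 12 endoderm markers only 2 were tested, and 1 of these (50%), APOA1, rose 1.7-fold (adjusted p = 0.0116). SOX17, FOXA2, GATA4 and AFP were detected on no array.

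Across the 12 arrays the nearest other genes were listed for each called member. Likeness was measured as the root mean square difference of log2 values after each gene was centred on its own mean, so that 0 is an identical course. CDH1, with a root mean square course of 0.75 of its own, was nearest to CRELD1 (0.15), PINK1 (0.17) and ANKDD1A (0.17). ELF3 (0.49) was nearest to C1orf54 (0.14), RAB11FIP1 (0.14) and PRKCD (0.15). CLDN6 (0.49) was nearest to TMEM39B (0.17), UTP14A (0.17) and RRP1B (0.18), and TFAP2C (0.29) to PRCP (0.08), PPP2R2C (0.09) and PRR13 (0.09). These genes were picked as the lowest distances among 11139 genes, so short distances follow from the choice. The nearest gene of the uncalled members lay at 0.16 (KRT8), 0.09 (KRT18), 0.11 (KRT19), 0.07 (EPCAM) and 0.11 (TFAP2A). The distances therefore do not set the called members apart. No other member stood among the genes named, which says little because members were few among all genes.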

How the data were processed

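The authors made biotinylated cRNA from total RNA and summarised the bead signals in GenomeStudio, whose version is not given in the sources used here. The deposited non-normalized table holds linear intensity for 47231 probes, not background-subtracted (lowest 41.6), and the detection p-value that the authors deposited beside each intensity compares the probe with negative control beads. The deposited normalized intensity of 47226 probes is quantile normalized and was used as an alternative.

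The non-normalized values were background-corrected (normexp with an offset of 16 and control beads inferred from detection p-values), quantile normalized and taken to log2 with neqc of limma 3.58.1 in R 4.3.3. Probes detected at p under 0.05 on at least 3 of 12 arrays were kept (19293). A single symbol was found for 30112 of all probes, several for 8 and none for 17111, and symbols were updated through Entrez IDs. The brightest kept probe stood for a gene, which gave 11139 genes, and other probes were adjusted over the 14295 kept named probes. Probe levels were not compared between genes.

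A mean per group was fitted to the 12 arrays together (lmFit, eBayes), with 5.64 prior and 8 residual degrees of freedom. Tests were two-sided, p-values were adjusted by Benjamini-Hochberg over all genes, and an adjusted p under 0.05 was called. Where a gene was undetected on all arrays of a group, its values there were raised to the lowest normalized signal detected on each array, and the fold is given as "at least". Precision is limited by having 3 arrays in a group. The fit was tested on simulated data with the same spread per gene in all groups, which leaves out the wider spread of the cisplatin arrays.

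The members, gene lists and tests were chosen with earlier results of these data known. All members were described, then of each list up to 4 called genes with the largest change and defining markers near background. KLF4, TCF4, FOXC2, THY1, ACTA2 and the list genes given without a call in the main test fall outside this rule. They were chosen after their values were seen, and those without a call include CDH2, TWIST1, POU5F1, TEAD4, CTNNA1, CTNNB1 and CTNND1. The 3 nearest genes were named for each member called against control, and the lowest distance was added for the uncalled members. Alternatives covered the normalization, the filter, the choice of probe, the arrays fitted, array weights, the replicate number as a block and each array left out. Upstream sequences and gene positions are from RefSeq (GRCh38.p14), with a match for 4 of the 10 members in the promoter table. No SD is given beside the per-array values, and errors beside differences are standard errors of the model.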

Additional observations from a re-analysis of the deposited data

Results flagged for a closer look

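The effect of 5-aza differed between 3 days and 1 day for CDH1, ELF3 and CLDN6 when this difference was tested directly. CDH1 was higher at 3 days than at 1 day by 1.22 on the log2 scale (adjusted p = 0.00255, limma) and ELF3 by 0.94 (adjusted p = 0.00233), with all 3 arrays at 3 days above all at 1 day. CLDN6 stood at -0.92 (adjusted p = 0.0272), with all 3 arrays below. The CLDN6 call was lost in 5 of 12 fits with 1 array left out and without the filter on detection. Both time points share the same controls, which cancel in this difference.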

How the results depend on the processing

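The calls of CDH1, ELF3 and CLDN6 at 3 days against control were kept under all 10 alternatives and without any 1 of the 12 arrays, with ranges without an array of 1.46 to 1.59, 1.11 to 1.35 and -1.25 to -0.91. The lowest and highest values under the alternatives were 1.12 and 1.57, 0.75 and 1.28, and -1.34 and -0.88. Members called in the cisplatin comparison numbered 0, and 0 to 2 without an array. Against cisplatin at 3 days 4 were called, 2 with only the 6 arrays compared, 2 at an adjusted p under 0.01, and 2 to 4 without an array. Of all genes 25.1% were called in that comparison, 7.33% with the 6 arrays and 10% at an adjusted p under 0.01. Median scaling put the median of all genes at -0.17 at 3 days against control (0.01 after quantile normalization) and at -0.20 against cisplatin (0.07), and there ELF3 (0.54, adjusted p = 0.0744) and TFAP2C (0.21, adjusted p = 0.369) were not called against cisplatin, while EPCAM at 3 days against 1 day (-0.58, adjusted p = 0.0427) and KRT19 against cisplatin (-1.19, adjusted p = 0.0461) were. With array weights, which were lowest for cisplatin replicates 3 (0.15) and 1 (0.19), KRT19 was called against cisplatin (-0.98, adjusted p = 0.0134) and TFAP2C between 1 and 3 days (adjusted p = 0.0127), and CLDN6 (-0.52, 0.237) and TFAP2C (0.57, 0.0528) were not called against cisplatin. With only the 6 arrays compared CLDN6 (0.143) and TFAP2C (0.12) were not called against cisplatin, TFAP2C was called between 1 and 3 days (0.0237), and with no filter CLDN6 was not called against cisplatin (0.0811). The cause of these changes was not tested.

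The fit without cisplatin arrays was chosen after the data were seen. Replicate numbers did not pair the arrays, since the correlation of deviations over 18 same-number pairs was -0.52 to 0.22 and 3 of 12 arrays correlated best with their own number. With the replicate number as a block, 3 of 9 members were called at 3 days against control (TFAP2C 0.58, adjusted p = 0.0598) and 3 against cisplatin (CLDN6 -0.72, adjusted p = 0.0514), and no other call of a member changed.

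Over all genes, 1901 were called at 3 days against control and 878 to 4262 in other settings, 0 at 1 day and up to 127, 159 with cisplatin and 18 to 3059, 1001 between 1 and 3 days and 476 to 3753, and 2795 against cisplatin and 816 to 4557.

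Differences that changed sign were all uncalled. Under median scaling EPCAM was 0.04 at 1 day and -0.06 with cisplatin, TFAP2C was 0.09 with cisplatin, KRT19 was -0.10 between 1 and 3 days, and KRT18 was -0.31 against cisplatin. Under cyclic loess TFAP2C was 0.10 with cisplatin and KRT18 0.03 between 1 and 3 days. With array weights KRT8 was -0.06 and TFAP2A 0.10 with cisplatin, KRT18 was 0.00 between 1 and 3 days and TFAP2A -0.17 against cisplatin. With the mean of kept probes KRT18 was -0.07 against cisplatin. Without an array, KRT18 ranged from -0.11 to 0.07 at 1 day, -0.13 to 0.05 at 3 days, -0.26 to 0.03 with cisplatin, -0.10 to 0.06 between 1 and 3 days and -0.09 to 0.20 against cisplatin. TFAP2A ranged from -0.06 to 0.17, -0.15 to 0.09, -0.31 to 0.12, -0.17 to 0.01 and -0.16 to 0.27 in the same order. EPCAM ranged from -0.07 to 0.05 at 1 day and -0.08 to 0.11 with cisplatin, TFAP2C from -0.18 to 0.15 with cisplatin, and KRT8 from -0.30 to 0.34 with cisplatin and -0.54 to 0.10 against it.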
